A study of Mus musculus with 68 samples.

Results

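The 9 genes described here are Fgf4, Fgfr1, Fgfr2, Pdgfra, Gata6, Gata4, Sox17, Sox7 and Foxa2, which carry the FGF signal of the early embryo or mark its primitive endoderm. They are 9 of the 24421 reference genes listed in each library, and their levels in TPM, a share of all transcripts scaled by transcript length, were read by gene symbol from every table. They were chosen by their known roles with the high TPM of Sox17 in the ICM of Max MO blastocysts already in view, so values from the ICM of fertilized blastocysts are given as a description, without a p-value for any of the 9 genes. The question was how these genes stood against epiblast genes in the inner cell mass (ICM) of embryos made by somatic cell nuclear transfer (SCNT) and of blastocysts injected with morpholinos (MO), which are antisense oligonucleotides that block translation or splicing of a target RNA.

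The series holds 68 Smart-seq2 libraries from mouse, a full-length method for polyadenylated RNA from few cells. Cumulus cells (CCs), the ovarian cells around the oocyte that served as nuclear donors, gave 3 libraries. SCNT embryos, made by placing a cumulus cell nucleus in an enucleated oocyte of a BDF1 mouse (B6D2F1 in the study's methods) and activating it with strontium chloride and cytochalasin B, gave 53 libraries: 6 each at 6 and 14 hours post activation (hpa), early 2-cell (E2C), late 2-cell (L2C), 8-cell (8C) and morula, 5 at 4-cell (4C), and 6 each from the ICM and the trophectoderm (TE), the outer layer of the blastocyst. Blastocysts from fertilized zygotes gave 12 libraries, 2 each from the ICM and TE of a control, a Max MO and a Mcrs1 MO group. By the study's methods, fertilized zygotes came from C57BL/6j females mated with C57BL/6j males, so strain differed along with the kind of embryo. The same methods place the SCNT ICM and TE at embryonic day 4. Max encodes the partner of MYC proteins and Mcrs1 a subunit of the NSL complex. The control libraries are labelled control and untreated, and were taken as the random-sequence control MO of the study. Every fertilized embryo in the MO groups was injected at the zygote stage, so ICM and TE carried the same treatment, and each library was a small pool of blastomeres rather than one embryo. The study gives a higher concentration for the control MO than for the Max MO, and the lowest for the Mcrs1 MO. Target and concentration therefore cannot be told apart in these comparisons. SCNT embryos carried no morpholino. The study describes its replicates as biological, and no label names the animals or collections behind each library.

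In the mouse blastocyst, cells of the ICM become epiblast, the source of the fetus, or primitive endoderm, an extraembryonic layer that later lines the yolk sac. Epiblast precursors secrete FGF4, which acts through the receptors FGFR1 and FGFR2 and the ERK kinases. Cells that respond keep GATA6, lose NANOG, and then switch on PDGFRA, SOX17, GATA4 and SOX7 in sequence, with FOXA2 joining in the endoderm.

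RefSeq promoter sequence (GRCm38.p6) was at hand for 4 of the 9 genes. The 250 bases before the start of Fgf4, Fgfr2 and Pdgfra are shown because the ligand and both receptors separated the ICM from the TE in one or both kinds of blastocyst. Capitals mark CG dinucleotides, each sequence is read 5′ to 3′ on the gene's strand, and the windows are chr7:144861136-144861385 (plus), chr7:130266809-130267058 (minus) and chr5:75152001-75152250 (plus).
Fgf4: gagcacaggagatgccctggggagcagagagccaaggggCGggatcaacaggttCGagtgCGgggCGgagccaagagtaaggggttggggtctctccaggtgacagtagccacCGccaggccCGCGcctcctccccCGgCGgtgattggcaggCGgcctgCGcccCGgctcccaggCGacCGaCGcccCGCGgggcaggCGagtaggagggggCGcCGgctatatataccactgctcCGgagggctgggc
Fgfr2: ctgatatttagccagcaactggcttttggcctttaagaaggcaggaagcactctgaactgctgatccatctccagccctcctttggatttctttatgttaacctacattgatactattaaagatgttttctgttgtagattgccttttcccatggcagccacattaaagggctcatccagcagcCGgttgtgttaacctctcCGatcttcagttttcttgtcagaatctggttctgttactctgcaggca
Pdgfra: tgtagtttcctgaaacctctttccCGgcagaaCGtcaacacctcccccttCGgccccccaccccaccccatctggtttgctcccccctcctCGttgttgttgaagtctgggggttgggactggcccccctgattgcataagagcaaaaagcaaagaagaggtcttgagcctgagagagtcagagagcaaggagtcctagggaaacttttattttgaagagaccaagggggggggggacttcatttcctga
The Fgf4 window held 21 CG dinucleotides at 71.2% G and C, the Fgfr2 window 2 at 44.0% and the Pdgfra window 4 at 54.4%. The median over 32851 mouse promoters was 6 in the same length. The E-box CACGTG, which MYC and MAX dimers bind, the GATA motif GATAA and the SOX motif ACAAT were searched on both strands, and none was in these 3 windows. Among all promoters, 6.02% held the E-box, 22.6% GATAA and 27.7% ACAAT. Foxa2, with 3 listed starts, held 1 GATAA match at one of them.

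In mm10, Fgf4 lies at chr7:144861386-144865243 on the plus strand and Fgfr2 at chr7:130162451-130266808 on the minus strand. Pdgfra lies at chr5:75152291-75198204 (plus), Fgfr1 at chr8:25518759-25575718 (plus) and Sox17 at chr1:4490928-4497354 (minus). Gata4 at chr14:63198915-63245260 (minus) and Sox7 at chr14:63943706-63950732 (plus) lie on the same chromosome. Foxa2 lies at chr2:148042877-148046969 (minus) and Gata6 at chr18:11052510-11085635 (plus). These are the spans of the genes as the tables list them, from the first to the last exon.

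Library depth, as aligned bases implied by the deposited coverage, ran from 1.90 to 5.17 gigabases in SCNT libraries and from 1.00 to 3.19 in fertilized ones. The tables hold no read counts. SCNT ICM replicates 1 to 3 differed from replicates 4 to 6 in breadth, with 6177 to 6771 against 9011 to 10032 genes at 1 TPM or more. SCNT TE replicates did so too, with 8401 to 8728 against 9284 to 9812 genes. Control and MO libraries of fertilized blastocysts also lay apart in the share of TPM held by reference genes. It was 85.5 to 87.0% in control ICM and 89.6 to 90.3% in control TE, against 93.6 to 94.4% in the MO libraries. The ratio of TPM to FPKM, a second deposited measure of level, was 2.73 to 2.77 in controls and 1.94 to 2.25 in MO libraries. The cause was not tested, and this split cannot be told apart from treatment in the MO comparisons. In the fertilized ICM, 1 of the 2 control libraries carried TE transcripts, and so did the MO libraries to differing degrees. The 16 TE markers summed to 17400 TPM in control ICM replicate 1, with 15 of 16 at 1 TPM or more, against 669 TPM and 7 of 16 in replicate 2 and 20578 and 22372 TPM in control TE. Cdx2, the factor that defines the TE, was at 57.7 TPM in replicate 1 and 0.222 TPM in replicate 2. Nanog was similar in both, at 561 and 639 TPM. The TE sum was 2960 and 6335 TPM in Max MO ICM and 12606 and 8986 TPM in Mcrs1 MO ICM. In Max MO ICM 10 and 14 of 16 markers were at 1 TPM or more, with Cdx2 at 3.25 and 3.77 TPM. In Mcrs1 MO ICM 15 and 14 of 16 were, with Cdx2 at 28.6 and 17.1 TPM. In SCNT embryos the TE sum ran from 2221 to 8931 TPM in the ICM, with Cdx2 at 0 in 3 of 6 libraries. In the SCNT TE it was 6233 to 7657 TPM in replicates 1 to 3 and 14433 to 17460 TPM in replicates 4 to 6. The part of TE transcripts in the ICM results was not tested, and called ICM differences were also computed without control ICM replicate 1. That leaves only the control library low in TE transcripts, so it does not even out TE content between the groups. Differences of the 9 genes are given both ways, and those of other genes where the call was lost or the value moved by over 1.5 times. Cumulus markers summed to 2006 to 3266 TPM over the 12 genes in CCs and to at most 66.6 TPM in any embryo library, and none of them was called in an ICM comparison.

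Max, the target of the first morpholino, was at 38.0 and 8.42 TPM in control ICM and 6.82 and 0.443 TPM in Max MO ICM, a difference of −2.51 on the log2(TPM + 1) scale (limma adjusted p = 0.0397), which was −1.49 (adjusted p = 0.177) without control ICM replicate 1. In the TE it was at 34.5 and 28.5 TPM in the control and 16.3 and 8.68 TPM in Max MO (limma adjusted p of 0.39). Mcrs1 fell in Mcrs1 MO from 253 and 310 to 86.8 and 73.4 TPM in the ICM (limma adjusted p = 0.00333) and from 219 and 294 to 41.1 and 45.5 TPM in the TE (limma adjusted p = 0.000868). A morpholino need not lower the RNA of its target, so these values check the labels only in part.

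A gene was called where limma's adjusted p was under 0.05 and the difference at least 2-fold on the log2(TPM + 1) scale, over all genes with a mean of at least 1 TPM. Of the 9 genes, 6 passed that filter in the SCNT libraries and 8 in the fertilized ones. Sox7 passed in neither, and Pdgfra (mean 0.991 TPM) and Foxa2 were not tested in SCNT libraries. Sox17 passed there mainly through 2 ICM libraries, and Foxa2 passed in fertilized libraries through 1 Mcrs1 MO ICM library. Gata4 passed in fertilized libraries through the MO ICM libraries and was at most 1.05 TPM in any other fertilized library.

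Along SCNT development the members took different courses. Fgf4 and Gata4 rose at the late 2-cell stage, were present through the 8-cell stage and fell in the morula. Gata6 and Fgfr2 rose at the 8-cell stage, Sox7 and Foxa2 stayed near 0, and Sox17 and Pdgfra reached 1 TPM or more in several libraries only of the ICM, apart from 1 TE library and 2 late 2-cell libraries for Pdgfra.

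Fgf4 was at 0 TPM in all 3 CC libraries and at most 0.378 TPM in any SCNT library up to E2C. At L2C its lowest, median and highest values were 2.63, 7.48 and 24.3 TPM, so that every L2C library lay above every E2C library. The rise was 3.16 ± 0.39 (SE) on the log2(TPM + 1) scale (limma adjusted p = 3.93e-09). At 4C the 5 libraries held 5.50, 14.5, 35.7, 12.9 and 13.5 TPM, and at 8C they spread from 3.63 to 10.6 TPM around a median of 7.42 TPM. In the morula Fgf4 was lower than in every 8C library, with a median of 0.993 TPM and a highest value of 3.43 TPM, and the fall was −1.88 ± 0.39 (limma adjusted p = 0.000472). Its highest SCNT group mean was at 4C, ahead of the stage at which ICM and TE form.

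Both FGF receptors were low over the cleavage stages. Fgfr1, the receptor of all ICM cells, had group means between 1.22 and 2.37 TPM from 6 hpa to the morula and no called step among them. In CCs it was between 0.703 and 2.26 TPM, and Fgfr2 between 0.473 and 1.49 TPM. Fgfr2, which becomes prominent in endoderm and TE, lay between 2.91 and 5.33 TPM at 6 hpa and was at most 0.773 TPM in the 5 libraries of 4C. The 4C step itself missed the threshold, at −1.05 ± 0.46 (limma adjusted p = 0.0577). At 8C Fgfr2 stood between 4.08 and 9.82 TPM in 5 libraries and at 0.124 TPM in replicate 2, a rise of 2.02 ± 0.46 (limma adjusted p = 0.000915).

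Gata6, the first factor of the endoderm and earlier present throughout the ICM, was between 9.88 and 23.1 TPM in CCs, at most 4.89 TPM in SCNT embryos up to L2C and between 0.0359 and 11.6 TPM at 4C. It was between 7.04 and 28.0 TPM at 8C, with 1 4C library inside that range, and rose by 2.21 ± 0.54 on the log2 scale (limma adjusted p = 0.00226). In the morula it was between 14.8 and 36.5 TPM, the highest mean of the SCNT groups at 24.6 ± 8.80 TPM (SD, n = 6). Gata4, a later endoderm factor that granulosa cells also express, took a different course. It was at 10.6, 8.88 and 6.30 TPM in CCs, between 1.95 and 18.0 TPM at L2C, and between 3.23 and 15 TPM at 8C. The L2C rise over E2C was 1.45 ± 0.43 (limma adjusted p = 0.00604) with overlapping libraries. In the morula it was at or below 0.374 TPM in 5 of 6 libraries and 4.37 TPM in replicate 3, a fall of −2.49 ± 0.43 (limma adjusted p = 4.62e-05). Gata4 stayed low from then on, with at most 0.247 TPM in any SCNT ICM library.

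Counts by step, read beside all genes, were small. At 14 hpa against 6 hpa 0 of 6 tested genes were called where 11.1% of all genes were, and at E2C against 14 hpa 0 of 6 where 5.83% were. None of the 6 had an unadjusted limma p under 0.05 in either step. Fgf4, at most 0.378 TPM in these libraries, lay too low for a 2-fold difference there. Sox17 entered the test mainly through 2 ICM libraries and was at most 0.262 TPM in any SCNT library up to the morula. It counts among the 6 but could not be called at any step up to the morula. L2C against E2C called 2 of 6, Gata4 and Fgf4, both higher, beside 34.9% of all genes. At 4C against L2C 0 of 6 were called beside 38.4%, with 1 gene, Fgfr2, at an unadjusted limma p under 0.05. At 8C against 4C 2 of 6 were called, Gata6 and Fgfr2, beside 19.8%. At morula against 8C 2 of 6, Gata4 and Fgf4, were lower, beside 12.2%. The median difference of all genes was itself 0.26 at L2C, −0.33 at 4C and 0.20 at the morula, and near 0 in each after quantile normalization, and the 4 rises and 2 falls above kept their direction under that scaling.

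**Figure D1:**
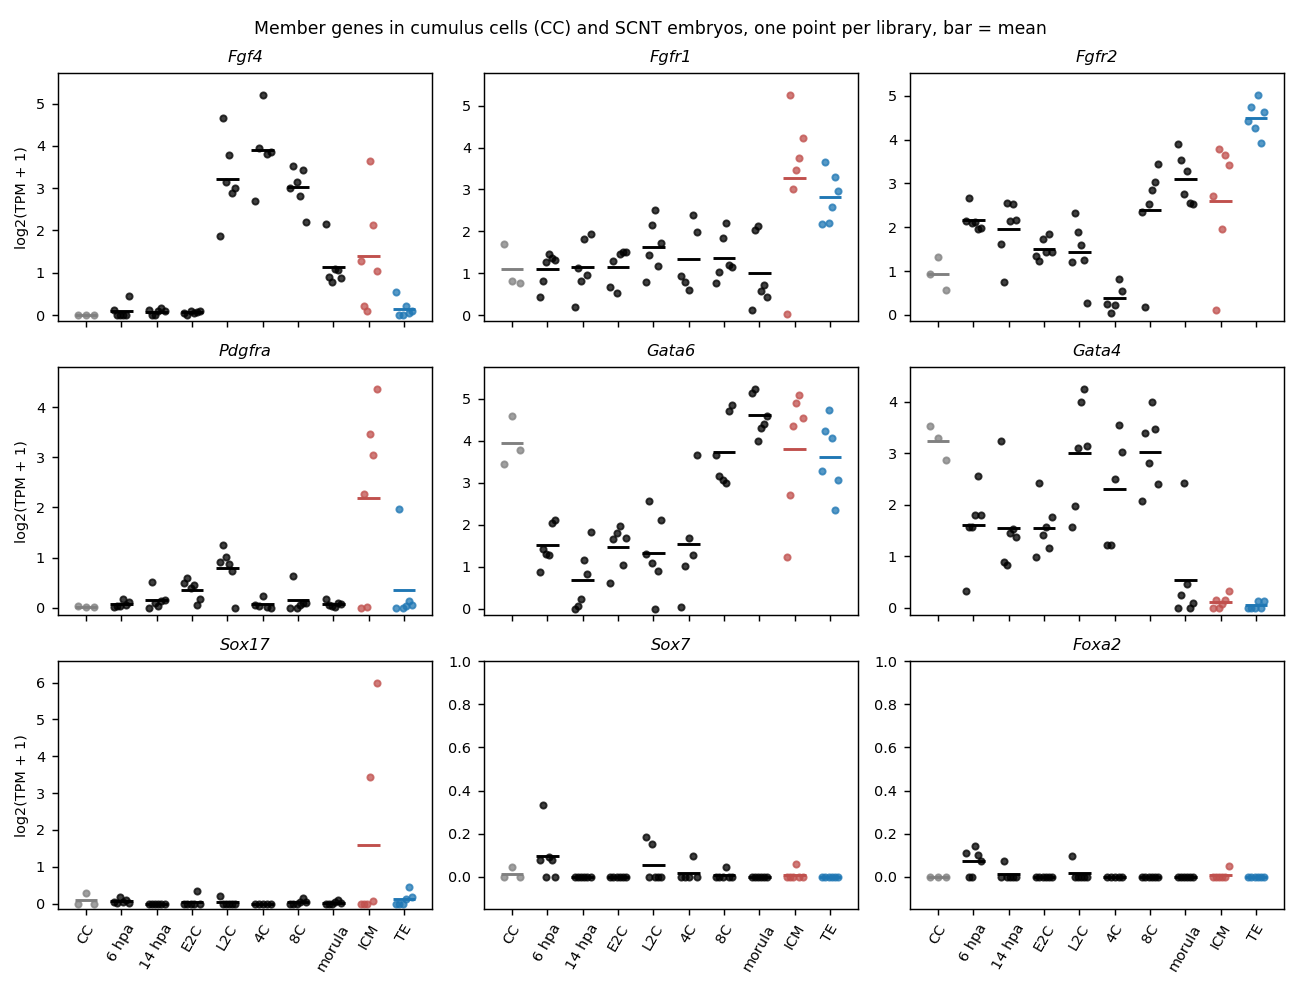
Level of each of the 9 genes on the log2(TPM + 1) scale in CCs and SCNT embryos, with one point per library and a bar at the group mean (ICM red, TE blue, CCs grey). Fgf4 is high from L2C to 8C, Gata6 from 8C on, and Sox17 in 2 ICM libraries, at 9.85 and 62.3 TPM.

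In SCNT blastocysts the receptor Fgfr2 separated the lineages most clearly and the endoderm markers were uneven between ICM libraries. Fgfr2 was lower in the ICM than in the TE in every library, Fgf4 was higher in the ICM with overlap, and Gata6 differed little. Sox17 and Pdgfra were high in some ICM libraries and near 0 in others.

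Fgfr2 was at 5.53, 0.0800, 12.9, 2.90, 11.5 and 9.77 TPM in ICM replicates 1 to 6. In the TE it was between 14.1 and 31.3 TPM with a median of 22 TPM. No ICM library reached the lowest TE library, and ICM minus TE came to −1.89 ± 0.43 on the log2(TPM + 1) scale (limma adjusted p = 0.00444). It was −2.27 (adjusted p = 0.0443) in replicates 1 to 3 alone and −1.51 (adjusted p = 0.0179) in replicates 4 to 6 alone. Against the morula, Fgfr2 was higher in the TE without overlap, by 1.41 ± 0.43 (limma adjusted p = 0.0127), while the ICM differed by −0.48 with a 95% interval from −1.35 to 0.39 (limma adjusted p = 0.47).

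Fgf4 was at 1.43, 0.152, 0.0770, 11.5, 3.41 and 1.05 TPM in the 6 ICM libraries and at most 0.470 TPM in the TE. Of the ICM libraries 4 lay above all TE libraries and 2 lay among them. The difference was 1.26 ± 0.39 (limma adjusted p = 0.0411), and without ICM replicate 4 it was 0.81 (adjusted p = 0.168). In replicates 1 to 3 alone it was 0.35 (adjusted p = 0.879) and in replicates 4 to 6 alone 2.17 (adjusted p = 0.00224). Against the morula Fgf4 was lower in every TE library, but the fall of −1.0 ± 0.39 missed the threshold (limma adjusted p = 0.0524).

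Fgfr1 was at 0.0189 TPM in ICM replicate 1 and between 7.0 and 37.0 TPM in the other 5. In the TE it was between 3.5 and 11.6 TPM. Both lineages exceeded the morula, where no library passed 3.39 TPM, by 2.28 ± 0.48 in the ICM (limma adjusted p = 0.000234) and by 1.81 ± 0.48 in the TE without overlap (limma adjusted p = 0.00334). In replicates 1 to 3 alone these were 1.33 (adjusted p = 0.234) and 1.25 (adjusted p = 0.325). ICM and TE differed by 0.47 with a 95% interval from −0.49 to 1.43 (limma adjusted p = 0.713).

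Sox17, which commits cells to endoderm, was listed at 0 in SCNT ICM replicates 1, 2 and 3, and was at 9.85, 0.0523 and 62.3 TPM in replicates 4, 5 and 6. No TE library exceeded 0.360 TPM and no earlier SCNT library 0.262 TPM. Replicates 4 and 6 alone brought its mean past the 1 TPM filter, and without replicate 6 it was not tested. The differences of 1.55 ± 0.48 against the morula and 1.46 ± 0.48 against the TE are therefore a description, with no p-value, and the first was 1.18 without replicate 4. Pdgfra, the earliest surface marker of the endoderm, was at 0, 3.81, 0.00427, 9.99, 7.21 and 19.5 TPM in the same ICM libraries. In the TE it was at 2.89 TPM in replicate 2 and at most 0.10 TPM in the others. Both genes were highest in ICM replicate 6, and the 3 libraries with fewer genes detected held 0 Sox17.

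Gata6 was at 1.34, 5.50, 19.4, 28.9, 33.3 and 22.4 TPM in the ICM and between 4.11 and 25.4 TPM in the TE. The lineages overlapped, at 0.18 with a 95% interval from −0.86 to 1.22 (limma adjusted p = 0.983), and neither differed from the morula past the threshold (limma adjusted p = 0.27 for the ICM and 0.172 for the TE). Gata4 was at most 0.247 TPM in the ICM and 0.0984 TPM in the TE. Sox7 and Foxa2, the last genes of the sequence, were at most 0.0428 and 0.0352 TPM in the ICM and listed at 0 in all 6 TE libraries.

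ICM against morula called 2 of 6 tested genes, Sox17 and Fgfr1, beside 24.0% of all genes, and the call of Sox17 is not counted as a result because only the ICM brought it into the test. TE against morula called 2 of 6, Fgfr1 and Fgfr2, beside 21.8%. Sox17, at most 0.360 TPM in both, could not be called there. ICM against TE called 2 of 6, Fgfr2 lower and Fgf4 higher, beside 5.34%. Gata4, at most 0.247 TPM in both, could not be called there. The ICM and TE comparisons with the morula share the 6 morula libraries. Among Fgfr2 and Fgf4, both were called in ICM against TE in replicates 4 to 6 alone, where 912 genes were called in all. Fgfr2 alone was called in replicates 1 to 3, beside 974 genes in all.

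Summed per library, the 6 endoderm genes (Gata6, Gata4, Sox17, Sox7, Pdgfra and Foxa2) held 1.34, 9.41, 19.5, 48.8, 40.7 and 104.5 TPM in SCNT ICM replicates 1 to 6. The epiblast genes Nanog, Sox2 and Fgf4 together held between 154 and 279 TPM in the same libraries, so the endoderm sum stayed below the epiblast sum in 6 of 6. Nanog, the factor that holds epiblast identity, made up most of the latter at 154 to 274 TPM. In the SCNT TE the endoderm sum was between 4.57 and 25.4 TPM, nearly all of it Gata6, and the epiblast sum between 32.3 and 172 TPM.

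In fertilized blastocysts the endoderm genes Sox17 and Gata4 were near 0 in control ICM and present in all 4 MO ICM libraries. Fgfr1 was lower in both MO groups of the ICM, Fgf4 was lower in Mcrs1 MO ICM, and Gata6 stayed within a narrow range in all 12 libraries. The values below describe the libraries with which the genes were chosen.

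Sox17 was at 0 and 0.133 TPM in the 2 control ICM libraries. It was at 178 and 32.5 TPM in Max MO ICM and at 38.2 and 22.5 TPM in Mcrs1 MO ICM. On the log2(TPM + 1) scale the differences were 6.18 ± 1.26 (SE) for Max MO and 4.83 ± 1.26 for Mcrs1 MO. Without control ICM replicate 1 they were 6.09 and 4.74, and without Max MO ICM replicate 1 the first was 4.98. Gata4 was at 0 and 0.0808 TPM in control ICM, 26.1 and 2.52 TPM in Max MO ICM and 6.99 and 14.7 TPM in Mcrs1 MO ICM. The differences were 3.23 ± 0.83 and 3.43 ± 0.83, or 3.18 and 3.37 without control ICM replicate 1. The Max MO libraries differed about as much between themselves as from the control for Gata4, and without Max MO ICM replicate 1 the difference was 1.76.

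The last genes of the sequence appeared in single libraries. Sox7 was at 2.13 TPM in Max MO ICM replicate 2 and 1.33 TPM in Mcrs1 MO ICM replicate 2, at 0 in the other library of each group, and at most 0.0691 TPM in control ICM. Foxa2 was at 10.5 and 0.0625 TPM in Mcrs1 MO ICM and listed at 0 in both control and both Max MO ICM libraries. Gata6 did not separate the groups, at 30.5 and 21.8 TPM in control, 31.9 and 28.7 TPM in Max MO and 29.6 and 26.9 TPM in Mcrs1 MO ICM. Its differences were 0.22 ± 0.30 and 0.12 ± 0.30.

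Among the receptors, Fgfr1 was at 18.1 and 43.5 TPM in control ICM, 9.14 and 6.53 TPM in Max MO ICM and 7.55 and 12.2 TPM in Mcrs1 MO ICM. Every MO library lay below both controls, with differences of −1.74 ± 0.50 and −1.46 ± 0.50. The first was −2.35 without control ICM replicate 1 and −1.13 without replicate 2. Fgfr2 was at 26.3 TPM in the control library with TE transcripts and 1.07 TPM in the other, so its control level could not be fixed. It was at 15.7 and 15.1 TPM in Max MO ICM and 22.8 and 26.3 TPM in Mcrs1 MO ICM. Pdgfra overlapped between groups, at 5.29 and 12.9 TPM in control, 27.6 and 12.8 TPM in Max MO and 11.4 and 15.9 TPM in Mcrs1 MO ICM. It was the one endoderm gene other than Gata6 already present in control ICM.

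The ligand Fgf4 was at 32 and 8.89 TPM in control ICM and at 15.4 and 13.2 TPM in Max MO ICM, a difference of −0.24 ± 0.66. In Mcrs1 MO ICM it was at 1.88 and 3.64 TPM, below both controls by −2.30 ± 0.66. Without control ICM replicate 1 the Mcrs1 MO difference was −1.43 and no longer met the call rule.

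By the call rule, 3 of 8 tested genes were called in Max MO ICM (Sox17 and Gata4 higher, Fgfr1 lower) beside 23.7% of all genes, and 3 of 8 in Mcrs1 MO ICM (Sox17 and Gata4 higher, Fgf4 lower) beside 10.1%. In control ICM against control TE 1 of 8, Fgf4, was called beside 2.92%. Since the genes were chosen with these libraries in view, nothing is read from the counts, and both MO comparisons share the 2 control libraries. Gata4 also entered the test only through the MO ICM libraries. Control ICM exceeded control TE for Fgf4 by 3.82 ± 0.66, or 2.95 without control ICM replicate 1, with TE values of 0 and 0.644 TPM. Pdgfra was also higher in both control ICM libraries than in control TE, at 0 and 1.01 TPM, and Fgfr2 was lower, with control TE at 67.6 and 32.7 TPM.

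**Figure D2:**
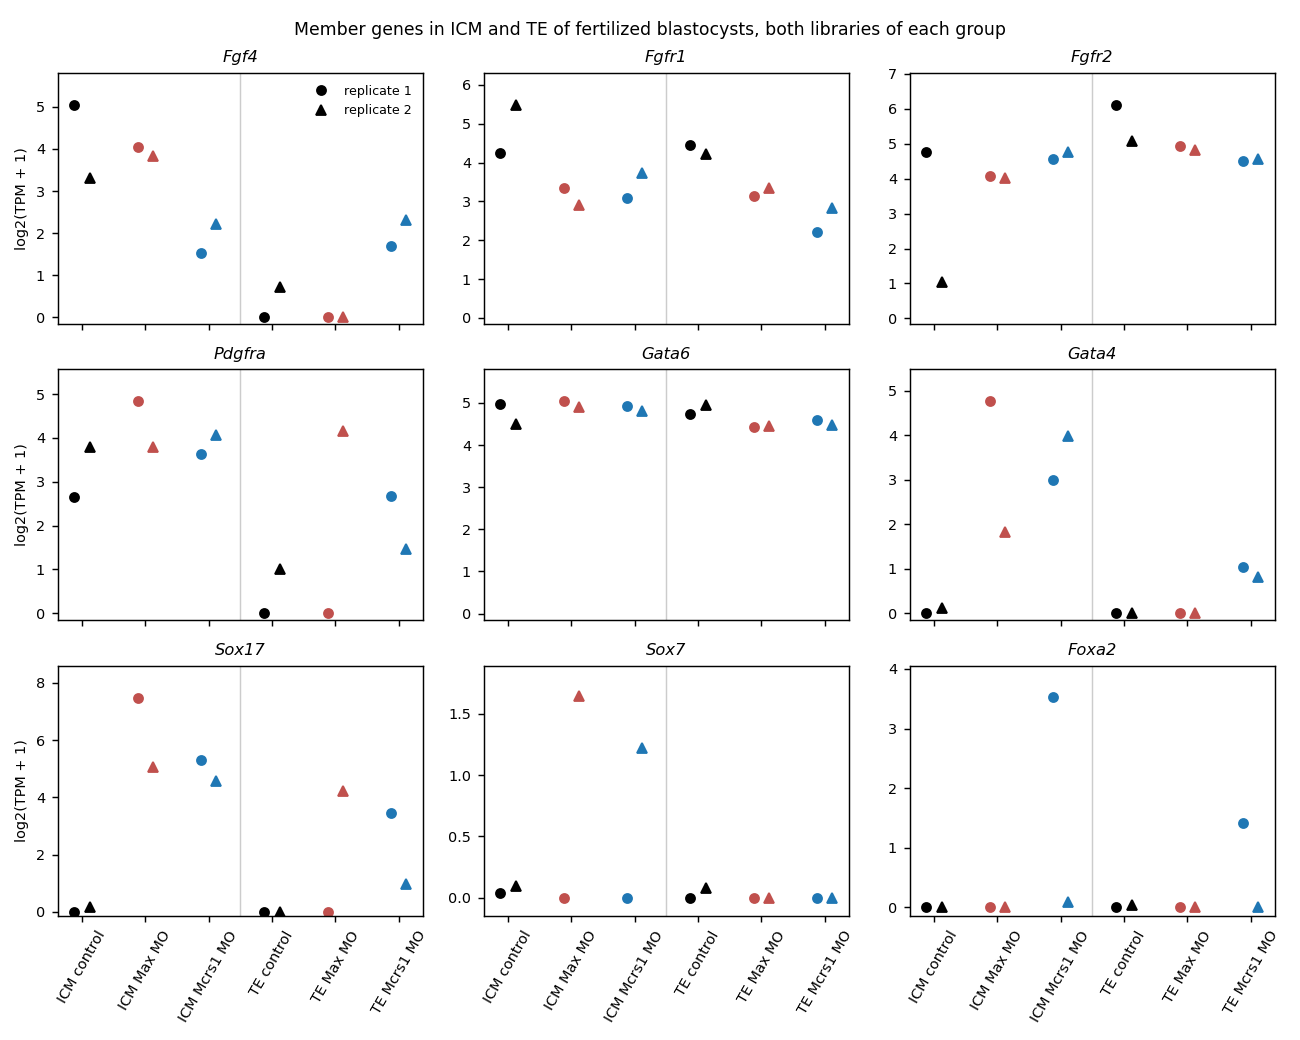
Level of each of the 9 genes on the log2(TPM + 1) scale in the ICM and TE of control, Max MO and Mcrs1 MO fertilized blastocysts, with a circle for replicate 1 and a triangle for replicate 2. Sox17 and Gata4 lie near 0 in both control ICM libraries and above 2 TPM in all 4 MO ICM libraries, while the Fgfr2 controls lie apart at 26.3 and 1.07 TPM.

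The endoderm sum was 35.8 and 35.0 TPM in control ICM, against epiblast sums of 598 and 649 TPM. In Max MO ICM the endoderm sum was 264 and 78.6 TPM and the epiblast sum 240 and 299 TPM. In Mcrs1 MO ICM they were 96.7 and 81.3 TPM against 98.8 and 388 TPM. Endoderm sums of these 6 genes in all 4 MO ICM libraries lay above both controls and the sums of the 3 epiblast genes below. The wider lists did not all follow. The 20 other primitive endoderm genes summed to 2384 and 2633 TPM in control ICM, above 1205 and 2246 TPM in Max MO ICM and 1263 and 1728 TPM in Mcrs1 MO ICM. All 19 epiblast genes summed to 2975 and 4427 TPM in control ICM, with Max MO ICM overlapping at 2337 and 3020 TPM and Mcrs1 MO ICM below at 1404 and 2103 TPM. Nanog itself was at 561 and 639 TPM in control, 224 and 284 TPM in Max MO and 96.9 and 383 TPM in Mcrs1 MO ICM. Sox2, a partner of OCT4 in the epiblast, was low throughout, at 5.12 and 1.2 TPM in control, 0.886 and 2.62 TPM in Max MO and 0 and 1.04 TPM in Mcrs1 MO ICM. Pou5f1, which encodes OCT4, did not follow Nanog, with 153 and 230 TPM in control, 318 and 280 TPM in Max MO and 161 and 176 TPM in Mcrs1 MO ICM. In a bulk library a change in the number of endoderm cells and a change in RNA per cell cannot be told apart.

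**Figure D3:**
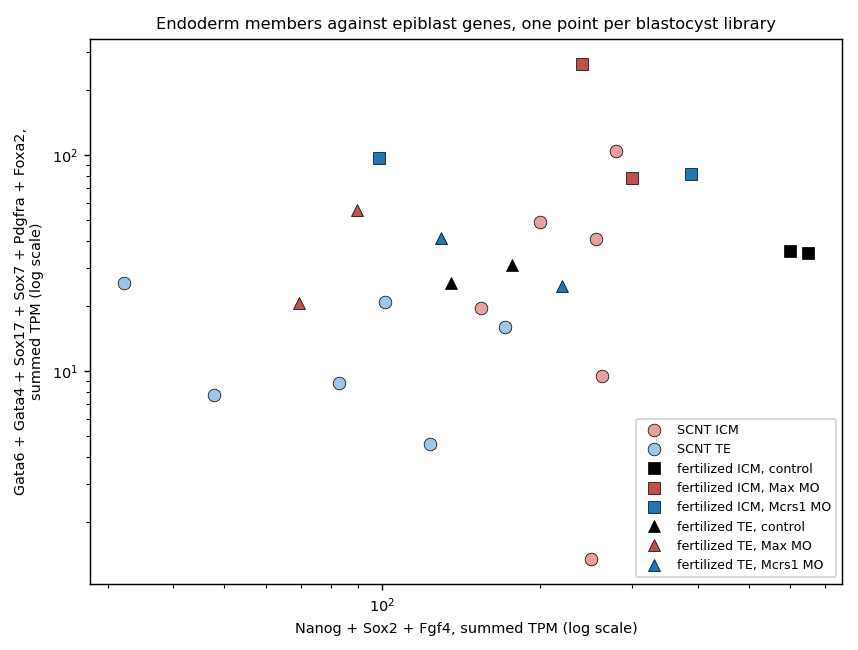
Summed TPM of the 6 endoderm genes against summed TPM of Nanog, Sox2 and Fgf4 for the 24 blastocyst libraries, both on log axes, with squares for fertilized ICM, triangles for fertilized TE and circles for SCNT. The 2 control ICM libraries lie at 598 and 649 TPM of epiblast genes and the 4 MO ICM libraries lie to their left and above them.

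In the TE, whose MO comparisons were not used to choose the genes, none of the 8 tested genes was called by limma after either morpholino. Of these, Gata4 and Foxa2 passed the filter through MO ICM libraries. Gata4 was listed at 0 and Foxa2 at most at 0.0212 TPM in control and Max MO TE, so neither could be called in Max MO TE. Fgfr1 came nearest to the threshold. Sox17 and Pdgfra reached several TPM in single MO libraries.

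Max MO TE called 0 of 8 beside 2.50% of all genes, with Gata4 and Foxa2 at or near 0 on both sides, and 0 had an unadjusted limma p under 0.05. Mcrs1 MO TE called 0 of 8 beside 5.08%, and 2, Fgfr1 and Fgf4, had an unadjusted limma p under 0.05. The median difference of the 8 was −0.19 in Max MO TE and 0.81 in Mcrs1 MO TE, beside −0.19 and −0.24 over all genes. Fgfr1 was at 20.7 and 17.7 TPM in control TE, 7.87 and 9.07 TPM in Max MO TE and 3.62 and 6.07 TPM in Mcrs1 MO TE. All 4 MO libraries lay below both controls, at −1.09 ± 0.50 (limma adjusted p = 0.25) and −1.82 ± 0.50 (limma adjusted p = 0.0565). Fgfr1 in Mcrs1 MO TE was called when only genes with a mean of at least 5 TPM were tested. Fgf4 was at 0 and 0.644 TPM in control TE, listed at 0 in both Max MO TE libraries, and at 2.24 and 3.95 TPM in Mcrs1 MO TE, a difference of 1.64 ± 0.66 (limma adjusted p = 0.15).

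Sox17 was listed at 0 in both control TE libraries, at 0 and 17.8 TPM in Max MO TE and at 10.1 and 0.977 TPM in Mcrs1 MO TE, and neither group passed the threshold (limma adjusted p = 0.381 and 0.307). Pdgfra followed the same libraries, at 0 and 16.8 TPM in Max MO TE and 5.41 and 1.77 TPM in Mcrs1 MO TE (limma adjusted p = 0.466 and 0.415). The higher value of both genes was in replicate 2 of Max MO and in replicate 1 of Mcrs1 MO. Gata4 was listed at 0 in control and Max MO TE and at 1.05 and 0.762 TPM in Mcrs1 MO TE (limma adjusted p = 0.535). Foxa2 was at 1.67 TPM in Mcrs1 MO TE replicate 1 and at most 0.0212 TPM in the other TE libraries. Sox7 was at most 0.0573 TPM in any TE library. Fgfr2 was at 29.3 and 27.2 TPM in Max MO TE and 21.6 and 22.6 TPM in Mcrs1 MO TE, below both controls but not past the threshold, at −0.72 (95% interval from −2.66 to 1.22) and −1.06 (from −3.00 to 0.88). Gata6 was at 20.6 and 21.1 TPM, and 23.2 and 21.3 TPM, against 25.6 and 30.0 TPM in control TE, at −0.39 (from −1.06 to 0.27) and −0.30 (from −0.97 to 0.36).

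Whether a response differed between ICM and TE was fitted as an interaction over all 11219 genes. It called 0 genes for either morpholino, with 1473 at an unadjusted limma p under 0.05 for Max MO and 972 for Mcrs1 MO.

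**Figure D4:**
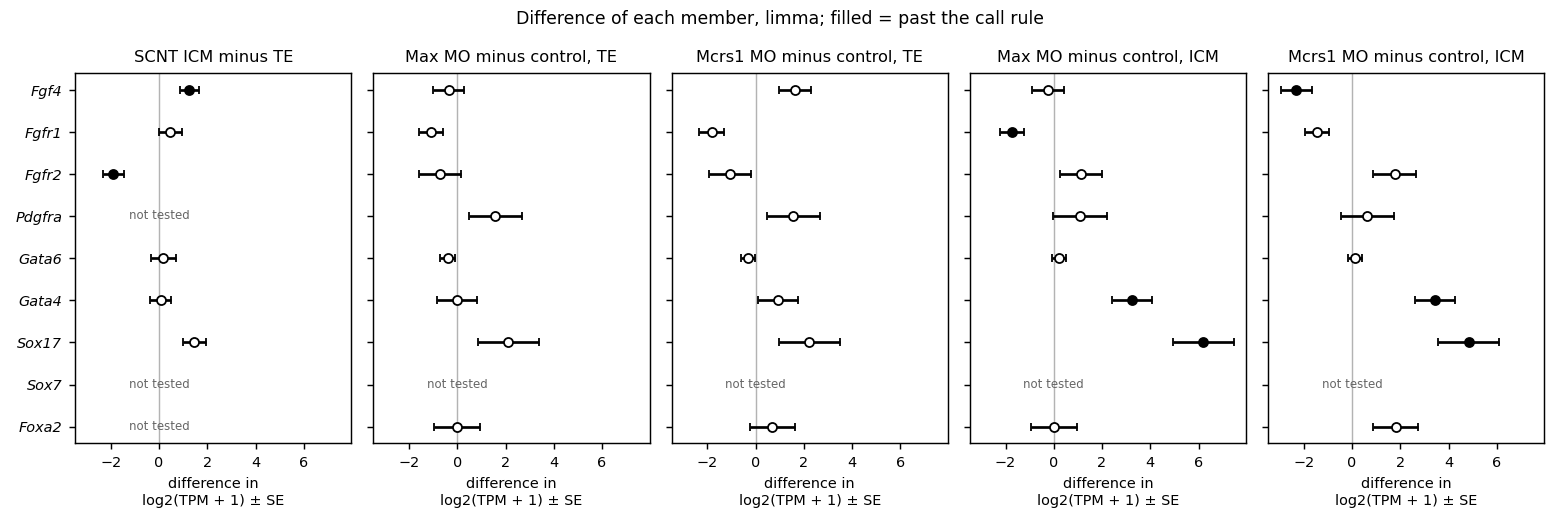
Difference of each gene on the log2(TPM + 1) scale with its standard error from limma, in SCNT ICM minus TE and in each MO group minus its control, with filled points past the call rule. Sox17 and Gata4 in MO ICM lie farthest to the right, and no point is filled in the TE panels. The ICM panels are a description of libraries with which the genes were chosen.

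Other genes of the same pathway and lineages were read as lists, with limma over all genes. The lists were chosen with earlier results of these data known, so the adjusted p-values of their genes are not an independent test of a list. The counts below stand beside the shares of all genes called in the same comparisons, which were 23.7% in Max MO ICM, 10.1% in Mcrs1 MO ICM, 2.50% in Max MO TE, 5.08% in Mcrs1 MO TE, 2.92% in control ICM against TE, 5.34% in SCNT ICM against TE, and 24.0% and 21.8% in SCNT ICM and TE against morula. Of 20 further primitive endoderm genes, most of them basement membrane or uptake genes, 16 were tested in fertilized libraries. In Max MO ICM 0 rose and 1 fell, Lrp2, an uptake receptor, at −1.94 (adjusted p = 0.0173), or −1.07 (adjusted p = 0.0553) without control ICM replicate 1. In Mcrs1 MO ICM 1 rose, Amn, a partner of the uptake receptor cubilin, at 3.32 (adjusted p = 0.0373), and 0 fell. The list medians were 0.60 and 0.73 beside medians of −0.21 and −0.05 over all genes. In control ICM against TE 3 rose, the collagen genes Col4a2 at 3.73 (adjusted p = 0.0129) and Col4a1 at 3.27 (adjusted p = 0.0149) and the matrix gene Sparc at 2.88 (adjusted p = 0.0138), and 1 fell, with a median of 1.23 beside −0.01. In Max MO TE 0 were called, and in Mcrs1 MO TE 1, Sparc, rose by 1.64 (adjusted p = 0.0473).

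In SCNT libraries 8 of these 20 genes were tested. Against the morula 3 rose in the ICM and 2 fell, with the lipid carrier gene Apoe at 3.83 (adjusted p = 1.82e-07), Sparc at 2.66 (adjusted p = 2.72e-05) and Lrp2 at −2.08 (adjusted p = 6.39e-06). In the TE 2 rose and 2 fell. Between ICM and TE 0 were higher in the ICM and 2 were lower, Lrp2 at −2.39 (adjusted p = 5.88e-06) and Dab2, an adaptor of endoderm and TE, at −1.67 (adjusted p = 0.0309). The list median was 0.36 beside −0.08 over all genes.

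Of 19 epiblast and pluripotency genes, 16 were tested in fertilized libraries. In Max MO ICM 3 fell and 0 rose, Tbx3 at −2.12 (adjusted p = 0.00589), Tfcp2l1 at −1.88 (adjusted p = 0.00105) and Sall4 at −1.42 (adjusted p = 0.00464), all transcription factors of the pluripotent state. In Mcrs1 MO ICM 4 fell and 0 rose, led by Klf2 at −2.64 (adjusted p = 0.0202), Tbx3 at −2.61 (adjusted p = 0.00741) and Tfcp2l1 at −1.51 (adjusted p = 0.00784). The medians were −0.29 and −1.03 beside −0.21 and −0.05 over all genes. Control ICM exceeded control TE for 4 of the 16, led by Klf2, Utf1 and Gdf3, and 0 were lower. Tbx3 and Sall4 also fell in the TE of both MO groups, where 2 genes were called in Max MO and 3 in Mcrs1 MO. In SCNT blastocysts 5 of 14 were higher in the ICM than in the TE and 0 lower, led by the transcription factor genes Otx2 at 2.20 (adjusted p = 0.00225), Utf1 at 2.13 (adjusted p = 0.0374) and Klf4 at 1.71 (adjusted p = 0.0043), with a median of 1.12 beside −0.08. Against the morula 7 of 14 were higher in the SCNT ICM, among them Nanog at 2.42 (adjusted p = 3.79e-05), and 1 was lower.

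Of the 16 TE markers 15 were tested. In SCNT ICM against TE 4 were lower and 0 higher, led by Fgfbp1, which encodes an FGF carrier protein, at −3.57 (adjusted p = 6.93e-05) and the TE transcription factors Gata2 at −2.28 (adjusted p = 5.49e-05) and Cdx2 at −1.90 (adjusted p = 0.011). In each of the 4 MO comparisons 1 was lower and 0 higher, and each time it was Tfap2c, which encodes a factor shared by TE and early ICM, at −2.03 in Max MO ICM (adjusted p = 0.000914), −1.95 in Mcrs1 MO ICM (adjusted p = 0.00375), −1.72 in Max MO TE (adjusted p = 0.0206) and −1.70 in Mcrs1 MO TE (adjusted p = 0.00827). In control ICM against control TE 0 of 15 were called, with a median of −2.50 beside −0.01 and control ICM replicate 1 among the libraries.

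Of 21 other FGF ligands, 6 were tested in SCNT and 2 in fertilized libraries. Fgf10 was the one higher in SCNT ICM than TE, at 2.13 (adjusted p = 0.000269), and was 2.60 above the morula (adjusted p = 7.61e-07). Fgf3 fell from the morula in both SCNT lineages, by −1.50 in the ICM (adjusted p = 0.0233) and −2.36 in the TE (adjusted p = 0.000351). In fertilized libraries 0 ligands were called. Of 8 other FGF and PDGF receptors and PDGF ligands, 1 was tested in SCNT libraries, Pdgfa, and 3 in fertilized ones, Pdgfa, Fgfr4 and Fgfrl1. Pdgfa, the ligand of PDGFRA, rose in Mcrs1 MO ICM by 1.32 (adjusted p = 0.039). Without control ICM replicate 1 the difference was 1.1 and no longer met the call rule. No other tested gene of this list was called in a blastocyst comparison.

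Of 19 genes that relay the signal from receptor to ERK, 18 were tested in fertilized libraries. In Max MO ICM 5 of 18 fell and 0 rose, a share near the 23.7% of all genes called there, of which 1689 of 11219 were lower. The falls were led by the kinase gene Braf at −2.76 (adjusted p = 0.00272), the receptor adaptor Frs2 at −2.64 (adjusted p = 0.00169) and the Ras activator Sos1 at −2.57 (adjusted p = 0.00953), with a median of −0.46 beside −0.21. In Mcrs1 MO ICM 1 fell, Braf at −1.88 (adjusted p = 0.0303). In Mcrs1 MO TE 3 fell, Sos1 at −2.25 (adjusted p = 0.0448), Frs2 at −1.69 (adjusted p = 0.0351) and Nras at −1.11 (adjusted p = 0.0295), and in Max MO TE 0 were called. In SCNT ICM against TE 1 of 17 was lower, Frs2 at −1.64 (adjusted p = 0.00897).

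Of 19 ERK targets and feedback inhibitors, 9 were tested in fertilized libraries. In Max MO ICM Dusp4, an ERK phosphatase, rose by 4.42 (adjusted p = 0.0109) and Rasa1, a Ras inhibitor, fell by 1.79 on the log2 scale (adjusted p = 0.0172), with a median of −0.75 beside −0.21. Without control ICM replicate 1 the Dusp4 difference was 2.73 (adjusted p = 0.0332) and the Rasa1 difference −1.38 (adjusted p = 0.0543). In Mcrs1 MO ICM and in both MO groups of the TE 0 of 9 were called. Control ICM exceeded control TE for Etv5, a transcription factor induced by FGF, by 4.82 (adjusted p = 0.028). In SCNT libraries 16 were tested and 0 called between ICM and TE. Against the morula 2 were higher and 4 lower in the SCNT ICM, with Dusp6, an ERK phosphatase, at 3.09 (adjusted p = 0.000534), Dusp4 at −3.44 (adjusted p = 2.27e-07) and Ier3 at −2.52 (adjusted p = 0.00165).

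Ordered by mean TPM over all 16 groups, most neighbours overlapped. Each gene has 15 steps between neighbouring groups, and the libraries lay fully apart at 3 of them for Fgfr2, 1 each for Fgf4, Gata6, Pdgfra and Sox17, and 0 for Gata4, Fgfr1, Sox7 and Foxa2. The share of such steps over all genes was not computed, so nothing is read from these counts. Some gaps were small, as from 21.3 to 21.1 TPM for Gata6. Fgf4 was highest in control ICM at 20.4 ± 16.3 TPM (SD, n = 2), followed by SCNT 4C at 16.4 ± 11.4 TPM (SD, n = 5) and Max MO ICM at 14.3 ± 1.57 TPM (SD, n = 2), and its one full step was from SCNT morula down to control TE. SCNT ICM held 2.94 ± 4.38 TPM (SD, n = 6) of Fgf4, with 1 of 6 libraries above the lower control ICM library. Fgfr2 was highest in control TE at 50.2 ± 24.7 TPM (SD, n = 2), then Max MO TE at 28.3 ± 1.47 TPM (SD, n = 2). Its full steps were below each of these groups and from Mcrs1 MO TE down to Max MO ICM. Fgfr1 was highest in control ICM at 30.8 ± 18.0 TPM (SD, n = 2), then control TE at 19.2 ± 2.13 TPM (SD, n = 2) and SCNT ICM at 14.0 ± 12.7 TPM (SD, n = 6). SCNT and fertilized embryos also differed in mouse strain and were fitted separately. No test was made between them, so these orders are a description.

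Sox17 was highest in Max MO ICM at 105 ± 103 TPM (SD, n = 2), then Mcrs1 MO ICM at 30.4 ± 11.1 TPM (SD, n = 2) and SCNT ICM at 12 ± 24.9 TPM (SD, n = 6), with its full step from Mcrs1 MO TE down to SCNT TE. Pdgfra ran in the order Max MO ICM at 20.2 ± 10.5 TPM, Mcrs1 MO ICM at 13.6 ± 3.17 TPM and control ICM at 9.07 ± 5.35 TPM (SD, n = 2 each), with its full step from Mcrs1 MO TE down to SCNT L2C. Gata6 ran from 30.3 ± 2.27 TPM in Max MO ICM (SD, n = 2) to 0.806 ± 0.997 TPM at 14 hpa (SD, n = 6), with its full step below Mcrs1 MO TE. Gata4 followed Max MO and Mcrs1 MO ICM, at 14.3 ± 16.7 and 10.9 ± 5.47 TPM (SD, n = 2 each), with SCNT L2C at 8.87 ± 6.43 TPM (SD, n = 6) and CCs at 8.59 ± 2.16 TPM (SD, n = 3).

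Over the means of the 15 embryo groups and 9993 genes, the genes most like each member by Pearson's r on the log2(TPM + 1) scale were named as a description, since groups of one series share depth and processing. Fgf4 was most like Fez1 (0.892), Klf2 (0.856) and Slc16a6 (0.846). Fgfr1 was most like Cblb (0.975), Zfp37 (0.969) and Anxa11 (0.966), and Fgfr2 like Dab2 (0.966), Il17re (0.946) and Anxa3 (0.946). Sox17 was most like Gstm7 (0.928), Tfpi (0.923) and Tmed3 (0.905), and Gata6 like Farsa (0.986), Srpr (0.985) and Fkbp8 (0.985). Gata4 had the least close partners, Axin1 (0.820), Ptpn9 (0.777) and Wrnip1 (0.774).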

How the data were processed

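Gene tables of 68 Smart-seq2 libraries were used, one per library. According to the methods and the submitters' processing notes, the authors used Cutadapt (1.16) for trimming, HISAT2 for alignment (mm10) and StringTie for TPM. The deposited tables hold coverage, FPKM and TPM per gene. The deposited TPM column lists loci assembled in each library, which sum to 1000000, and again 24421 reference symbols, so a reference gene's TPM is a level relative to those loci. The deposited coverage signal and FPKM served only to estimate depth, as coverage over FPKM. Read counts were not used here, so there is no count test and no counting interval. How the reads were assigned to strand is not given in the sources used here.

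Rows of one symbol were summed. log2(TPM + 1) was fitted with limma (3.58.1, lmFit and eBayes with a trend, R 4.3.3) after genes below a mean of 1 TPM were removed, in the 53 SCNT libraries (11867 genes) and the 12 fertilized ones (11219 genes). Genes were called at a Benjamini-Hochberg adjusted p under 0.05 and at least 2-fold. A difference on this scale understates the change of low genes. Python 3.11.15 with numpy 2.4.6, pandas 2.3.3 and matplotlib 3.10.9 was used for the rest. In simulated data with known differences, limma recovered 71 of 100 genes changed by 2 on the log2 scale for SCNT ICM against TE (11867 genes) and 60 of 100 for Max MO TE against control TE (11219 genes), and 100 and 88 of 100 changed by 4.

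The 9 genes, the lists and the tests were chosen with earlier results of these data known. The lists are other primitive endoderm, epiblast, TE, FGF ligand, other receptor, Ras to ERK, ERK target, cumulus and housekeeping genes. From each list at most the 3 largest called differences per comparison were named, with Nanog, Pou5f1, Sox2 and Cdx2 where lineages are described, and 3 most similar genes per tested member. Max and Mcrs1, the targets, were reported as a check of the labels. One 4C library is replicate 5 by its label, which was used. Replicate numbers were shared by groups, and same-numbered libraries deviated together in all 6 pairs, by a Pearson correlation over 0.1, in SCNT 14 hpa against 6 hpa (lowest 0.142) and SCNT ICM against TE (lowest 0.131). Alternatives were other pseudocounts, filters, scalings, a replicate block, the compared groups alone, SCNT replicates 1 to 3 or 4 to 6 alone and leaving out each library.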

Additional observations from a re-analysis of the deposited data

Results flagged for a closer look

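In 42 sets of a gene and a stage whose libraries reached 1 TPM, a single library lay far from the others of its group in 6. The share flagged over all genes was not computed, so nothing is read from this number. Gata4 was at 8.47 TPM in SCNT 14 hpa replicate 1, with the others between 0.770 and 1.88 TPM. In the SCNT morula it was at 4.37 TPM in replicate 3, with the others at most 0.374 TPM. Pdgfra was at 2.89 TPM in SCNT TE replicate 2, with the others at most 0.10 TPM. Fgfr2 was at 5.33 TPM in SCNT 6 hpa replicate 2, above 2.91 to 3.43 TPM in the others, and at 0.124 TPM in SCNT 8C replicate 2, below 4.08 to 9.82 TPM. Fgf4 was at 3.43 TPM in SCNT morula replicate 1, above 0.710 to 1.12 TPM in the others.

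Fgf4 lay on opposite sides of its control in the lineages of Mcrs1 MO blastocysts, and the TE difference did not pass the test. It was lower in both ICM libraries than in both control ICM libraries, by −2.3 on the log2(TPM + 1) scale, and higher in both TE libraries than in both control TE libraries, by 1.64. Within the Mcrs1 MO group the lineages overlapped, at 1.88 and 3.64 TPM in the ICM and 2.24 and 3.95 TPM in the TE. Both Mcrs1 MO ICM libraries also carried TE transcripts, whose part was not tested. The ICM difference minus the TE difference was −3.95 ± 0.93 (SE). The limma fit of this interaction over all 11219 genes called 0, Fgf4 included, with 972 at an unadjusted p under 0.05, and no p-value is given for Fgf4 because it was chosen with the ICM libraries in view.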

How the results depend on the processing

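Of 334 recomputed values of the 19 called differences of the 9 genes, 283 kept their direction and call, 51 kept their direction and lost the call, and 0 reversed. The 19 include the fertilized ICM differences and Sox17 in SCNT ICM against morula, which are description only, so the total gives them no support. Of 256 recomputed counts, 218 stayed within 1.5 times. Testing only genes with a mean of at least 5 TPM gave 0 calls for L2C against E2C, morula against 8C and ICM against morula. The genes concerned were no longer tested, and 3170, 1112 and 2188 genes were called in all. It gave 1 (Fgfr2) for TE against morula and for ICM against TE, beside 1869 and 364 genes in all. The same filter gave 1 (Fgfr1) for Mcrs1 MO TE, beside 646 genes in all. Fitting the compared groups alone gave 0 calls for SCNT ICM against TE (18 genes called in all), Max MO ICM (1), Mcrs1 MO ICM (0) and control ICM against TE (0). It gave 1 (Fgfr1) for Mcrs1 MO TE, where 1302 genes were called in all. These fits had fewer libraries to estimate the spread. Without the filter on low values Mcrs1 MO ICM and control ICM against TE gave 0, beside 721 and 152 genes in all. Quantile normalization gave 1 for 14 hpa against 6 hpa (Gata6, 1716 genes in all) and 1 for 4C against L2C (Fgf4, 4547 in all). For 4C against L2C, rescaling over reference genes gave 2 (Pdgfra and Fgfr2, 5497 in all) and a pseudocount of 0.1 gave 1 (Fgfr2, 4526 in all). The cause was not tested. Replicates 1 to 3 alone gave 1 for L2C against E2C, 8C against 4C, morula against 8C, ICM against morula (Gata6) and ICM against TE, and 0 for TE against morula. Replicates 4 to 6 alone gave 1 for 8C against 4C (2384 genes in all), and 4 for ICM against morula (3173) and for ICM against TE (912). Of these 4, Sox17 and Pdgfra passed the filter only through ICM libraries and are not counted as results. Leaving out one library gave 0 to 4 calls in Max MO ICM and in Mcrs1 MO ICM, 0 to 2 in control ICM against TE, 1 to 4 in SCNT ICM against TE, 1 to 3 in ICM against morula, 2 to 3 in TE against morula and in 8C against 4C, 0 to 1 in 4C against L2C, 2 to 2 in L2C against E2C and in morula against 8C, and 0 to 0 in the other 4. For the fits that left out a library, the number of all genes called is not given, so nothing is read from their counts. With the replicate block, Mcrs1 MO ICM gave 2 calls in place of 3, losing Fgf4, beside 1051 genes in all. The paired fit changed no other call of the 9 genes. Among the other list genes 2 of 3521 values reversed, Fgf3 at 4C against L2C, −0.23 in replicates 1 to 3 alone, and Grb2 in ICM against morula, 0.29 in replicates 4 to 6 alone. Fertilized groups had 2 libraries each, no counts, and 1 control ICM library rich in TE transcripts, and MO ICM libraries also carried TE transcripts. Low values and small differences of the 9 genes in fertilized libraries could therefore not be resolved.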

Other observations

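Housekeeping genes gave a scale for the fertilized comparisons. Of 8, Eef1a1, a translation factor, was lower in Max MO TE by −1.31 (limma adjusted p = 0.0149), in Mcrs1 MO TE by −1.37 (adjusted p = 0.00405) and in Mcrs1 MO ICM by −1.09 (adjusted p = 0.00545). Ppia, a peptidyl-prolyl isomerase, was higher in Max MO ICM by 1.34 (adjusted p = 0.000991). No other housekeeping gene was called in these comparisons. Both genes also moved the same way, short of 2-fold and without overlap, in the remaining MO comparisons. Eef1a1 was lower in Max MO ICM by −0.98 (limma adjusted p = 0.00247). Ppia was higher in Mcrs1 MO ICM by 0.92, in Max MO TE by 0.73 and in Mcrs1 MO TE by 0.79.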
